A study of Mus musculus with 6 samples.

Results

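The genes described here are 40 genes of the autophagy machinery and its cargo receptors, taken from the table of normalized values by gene symbol. All 40 were among its 20409 gene symbols and among the 12837 genes that passed the filter for testing, that is, whose mean over all libraries was 1 CPM or more (CPM, reads of a gene scaled to the size of the library). The set runs from the ULK1 initiation complex to the SNARE of autophagosome fusion, and its genes were listed by role.

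Autophagy encloses part of the cytoplasm in a growing double membrane, the phagophore, which closes into an autophagosome and fuses with a lysosome. The ULK1 kinase complex starts the process, the class III PI 3-kinase complex built on VPS34 and Beclin 1 marks the membrane with a phosphoinositide, ATG9A and the ATG2 proteins bring membrane lipid, and a pair of ubiquitin-like systems attaches LC3 and GABARAP proteins to phosphatidylethanolamine. Cargo receptors such as p62 and optineurin bind ubiquitin on the cargo and LC3 on the membrane. Lipid droplets can be degraded by this route (lipophagy) or by cytosolic lipases such as ATGL, the enzyme deleted in these cells. Much of the control of autophagy lies in protein modification and turnover, which mRNA levels do not show.

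RNA-Seq was done on cultured mouse lung endothelial cells (LECs) from control and *Atgl* ECKO mice, with 3 libraries for each genotype. *Atgl* ECKO cells carry floxed *Atgl* alleles together with a *Cdh5*-Cre transgene, which deletes *Atgl* (gene symbol *Pnpla2*) in cells that use the VE-cadherin promoter. The paper names *Atgl* fl/fl littermates as controls. Its culture methods call the controls of the LECs wild type littermates, and the titles of the control libraries read WT. Whether the control LECs carry the floxed alleles is therefore not settled. All LECs were selected by CD31, immortalized with the middle T antigen, grown in EGM-2 with serum and left untreated, so the controls share the immortalization and the medium. The labels give no ages and leave unsaid if the 3 libraries of a genotype are separate mice or cultures, so the spread behind each p-value may be technical. Nor is it said how many immortalized lines each genotype had, so differences of genotype and of cell line cannot be told apart.

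By the step between the lowest values, 1 CPM rested on 55.6 to 69.0 reads in each library. *Pnpla2* fell from 27.98 ± 1.91 CPM (SD, n = 3) to 9.40 ± 0.494 CPM (SD, n = 3), which left 33.6%. The log2 fold change of *Pnpla2* was -1.48 (adjusted p = 1.84e-12 from limma), and the exact permutation test over libraries gave p = 0.1 (two-sided), the smallest that 3 against 3 allow. All 12 endothelial markers were present, with a summed level of 5956 to 6049 CPM in control and 6143 to 6453 CPM in *Atgl* ECKO LECs, although 6 of them rose and 4 fell, with log2 fold changes from -1.35 (*Vwf*) to 1.90 (*Cldn5*). Of 6 leukocyte markers 4 stayed under 1 CPM in every library, and the sum of the list, 20.9 to 23.7 CPM in control and 63.98 to 75.5 CPM in *Atgl* ECKO LECs, was mostly *Cd68*. Markers of lung epithelium summed to 1.06 to 1.24 CPM and 1.32 to 1.93 CPM, and those of fibroblasts, smooth muscle and pericytes to 10.9 to 12.2 CPM and 16.5 to 18.3 CPM. Of 4 lymphatic markers *Prox1* and *Pdpn* were under 1 CPM in all libraries, *Lyve1* was high in both genotypes and *Flt4* fell by 0.51 on the log2 scale. That list summed to 1936 to 2081 CPM in control and 1839 to 2000.1 CPM in *Atgl* ECKO LECs. In bulk samples fewer cells of a type and less RNA per cell cannot be told apart, and the part of these marker levels in the results that follow was not tested.

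The question asked of the 40 genes was whether their mRNA differed between *Atgl* ECKO and control LECs. In the limma fit across all tested genes on log2(CPM + 1), 13 of the 40 rose and 19 fell in *Atgl* ECKO LECs at an adjusted p under 0.05, and 8 did not pass. Over all 12837 genes tested, 34.2% were higher and 36.2% lower by the same rule. The shares of the autophagy genes were 32.5% and 47.5%, so the share that rose was near the background and the share that fell was above it, a difference that was not tested. Their median log2 fold change was -0.07, against -0.01 for all genes, and their median absolute log2 fold change of 0.17 was below the 0.21 of all genes. Only 3 of the 40 rose by at least 0.5 on the log2 scale (*Atg2b*, *Bnip3l* and *Atg14*), where 9.08% of all genes did, and 3 fell by as much (*Optn*, *Ulk2* and *Map1lc3a*), where 7.76% did. The groups did not overlap for 28 of the 40, with all *Atgl* ECKO libraries above all controls in 13 and below them in 15, beside 73.1% of all genes.

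**Figure D1:**
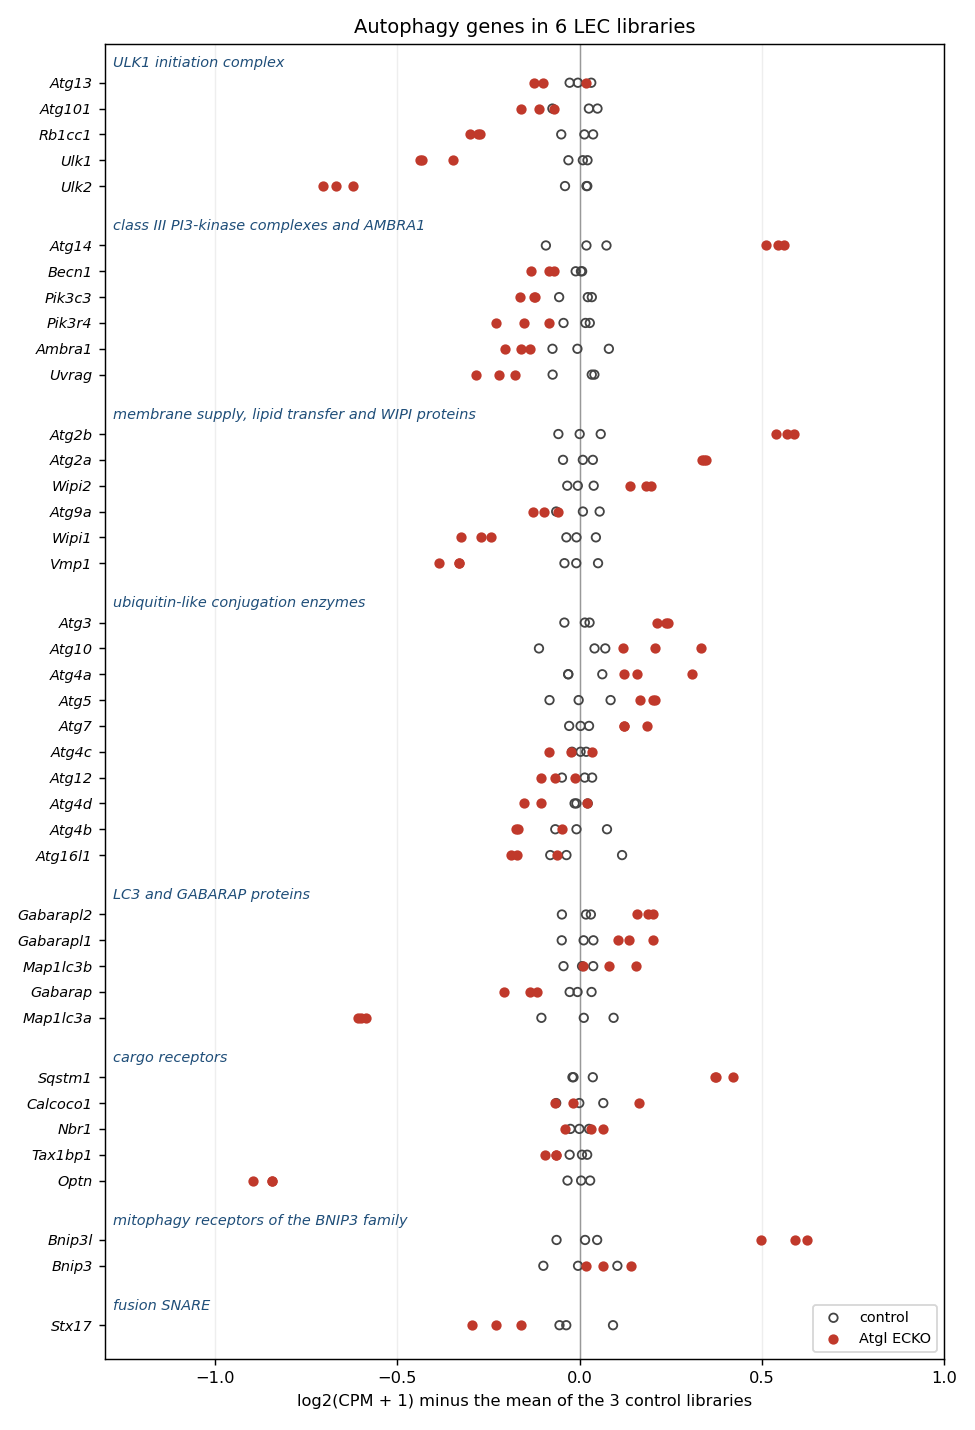
Each point is a library, plotted as its log2(CPM + 1) minus the mean of the 3 control libraries, for the 40 autophagy genes grouped by role (open circles, control; filled circles, *Atgl* ECKO). The *Atgl* ECKO points of *Optn*, *Ulk2* and *Map1lc3a* lie farthest to the left and those of *Atg2b*, *Bnip3l* and *Atg14* farthest to the right.

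The log2 fold changes of the 40 genes ran from -0.86 (*Optn*) to 0.57 (*Bnip3l*). Of all tested genes, 3.37% lay below *Optn* and 7.14% above *Bnip3l*.

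**Figure D2:**
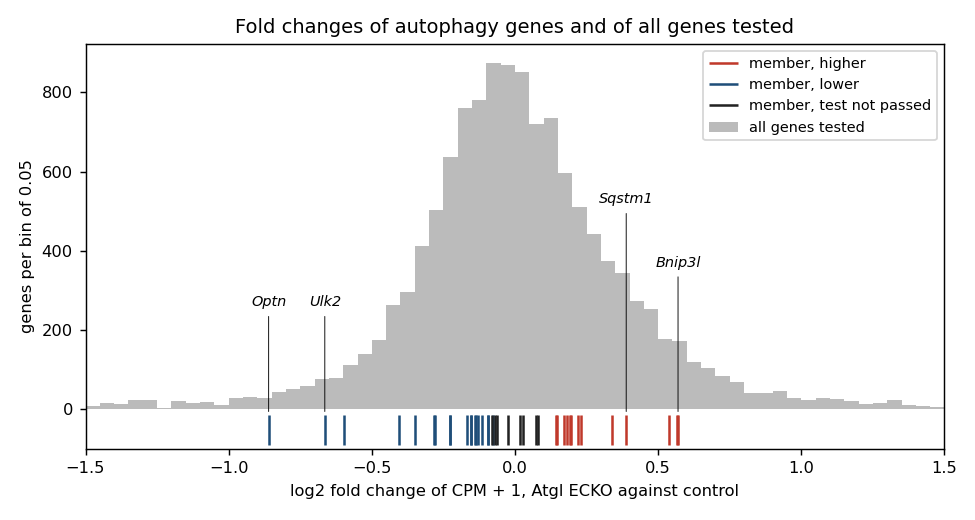
The histogram counts the 12837 tested genes by log2 fold change of CPM + 1 (*Atgl* ECKO against control, bins of 0.05), and the ticks under it mark the 40 autophagy genes by test result. The axis ends at -1.5 and 1.5, which leaves out 197 genes below and 111 above, and no autophagy gene lies beyond the tick of *Optn* on the left or of *Bnip3l* on the right.

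Many genes of the same chromosome shifted together in these libraries, which bears on single autophagy genes. The median log2 fold change over genes whose mean reached 5 CPM was 0.45 on chromosome 14, 0.41 on chromosome 19, 0.36 on chromosome 12 and 0.26 on chromosome 16, and it was -0.23 on chromosome 2. The 5 autophagy genes on chromosomes 12, 14, 16 and 19 (*Atg2b*, *Atg14*, *Bnip3l*, *Atg3* and *Atg2a*) were all higher. Of the 4 on chromosome 2, *Optn*, *Map1lc3a* and *Ambra1* were lower and *Atg13* did not pass. Over the other 31 genes, on chromosomes with medians from -0.2 to 0.2, 8 were higher and 16 lower. The largest of these medians was 0.19, on chromosome 10, where *Atg5* lies. For these groups of chromosomes the shares of all tested genes were not counted, so the counts of autophagy genes have no background beside them. With the median of each gene's own chromosome taken off, 10 of the 40 were higher (25%) and 11 lower (27.5%), where 32.3% and 31.8% of all tested genes were. The share that fell was thus above the background as the values stand and below it with the medians taken off, and neither difference was tested. Why the chromosome medians differed from 0 was not tested, and the corrected value is given below for each gene where it ends the call, turns the direction or moves the value by more than 1.5 times.

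**Figure D3:**
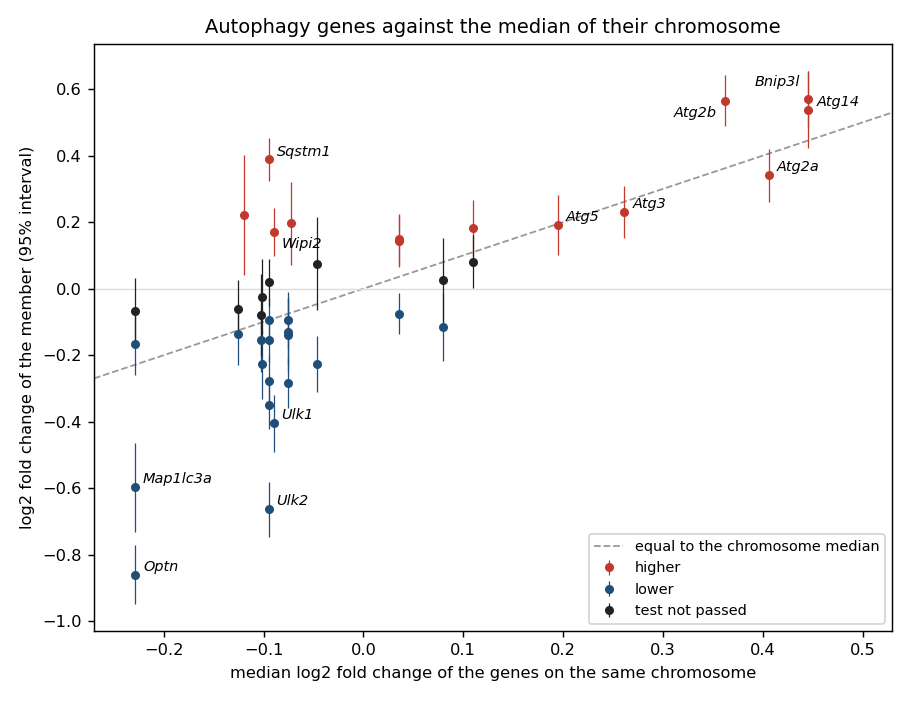
The log2 fold change of each autophagy gene (vertical axis, with its 95% interval) is plotted against the median log2 fold change of genes on its own chromosome (horizontal axis), and the dashed line marks equal values. *Atg14*, *Atg2a*, *Atg3* and *Atg5* lie within their intervals of the line, while *Optn*, *Ulk2* and *Ulk1* lie far below it and *Sqstm1* far above.

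In the ULK1 initiation complex, 4 of 5 genes were lower and none was higher (36.2% and 34.2% of all genes). With chromosome medians taken off 4 were lower and 1 higher. *Ulk2*, which encodes a kinase that can stand in for ULK1, had 42.2, 40.4 and 42.2 CPM in control replicates 1 to 3 and 26.7, 25.8 and 25.2 CPM in the *Atgl* ECKO replicates. The groups were far apart, with the highest *Atgl* ECKO library well below the lowest control. Its mean of 25.9 ± 0.780 CPM (SD, n = 3) was 62.2% of the control mean of 41.6 ± 1.02 CPM (SD, n = 3), a log2 fold change of -0.66 (95% interval -0.75 to -0.58, adjusted p = 4.34e-10 from limma). *Ulk1*, the kinase that phosphorylates Beclin 1, ATG14 and ATG9A, had 33.5, 32.6 and 33.8 CPM in control and 25.96, 24.3 and 24.4 CPM in *Atgl* ECKO libraries. Again no library of the knockout reached the lowest control. The log2 fold change of *Ulk1* was -0.41 (95% interval -0.49 to -0.32, adjusted p = 2.4e-07 from limma), to 74.8% of control. *Rb1cc1*, which encodes the scaffold FIP200, had 47.8, 47.0 and 44.9 CPM against 38.4, 37.6 and 38.2 CPM. All of its *Atgl* ECKO libraries lay below the controls and close to each other, and the log2 fold change was -0.28 (adjusted p = 3.65e-06 from limma).

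The other subunits of this complex moved less. *Atg101*, which stabilizes ATG13, had 18.6 ± 0.882 CPM and 17.1 ± 0.575 CPM (SD, n = 3 each), and its groups overlapped. It passed narrowly (log2 fold change -0.11, limma adjusted p = 0.0438) and lost the call without control replicate 1 or 3 or *Atgl* ECKO replicate 1 or 3, with adjusted p-values in limma of 0.116, 0.147, 0.0719 and 0.142. With the chromosome 15 median taken off its value was -0.19, past the test. *Atg13*, the HORMA-domain subunit that ULK1 and mTORC1 phosphorylate, did not pass at -0.07 (95% interval -0.17 to 0.03). Its value turned to 0.16 with the chromosome 2 median taken off, past the test (adjusted p = 0.00627 from limma), whereas without *Atgl* ECKO replicate 1 it passed as lower (-0.11, adjusted p = 0.046 from limma).

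Of the genes of the class III PI 3-kinase complexes and AMBRA1, 5 of 6 were lower, each by a small amount, and 1 was higher (36.2% and 34.2% of all genes). With chromosome medians taken off 1 was lower and 0 were higher. *Atg14*, the subunit that directs the kinase to sites where autophagosomes form, had 8.50, 9.26 and 9.66 CPM in control and 13.9, 13.8 and 13.4 CPM in *Atgl* ECKO libraries. The lowest *Atgl* ECKO library was well above the highest control. Its log2 fold change was 0.54 (95% interval 0.42 to 0.65, adjusted p = 2.99e-07 from limma), a rise to 150% of control. *Atg14* is on chromosome 14, and with that median taken off its value was 0.09 and no longer passed (adjusted p = 0.163 from limma).

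*Uvrag*, whose product replaces ATG14 in the complex that acts on endosomes, fell from 60.0 ± 2.68 CPM to 51.1 ± 1.91 CPM (SD, n = 3 each), a log2 fold change of -0.23. The catalytic subunit gene *Pik3c3* (VPS34), the pseudokinase gene *Pik3r4* (VPS15), *Becn1* (Beclin 1) and *Ambra1*, a Beclin 1 partner that also serves ubiquitin ligases, fell by 0.14, 0.16, 0.09 and 0.17 on the log2 scale. In all 5 of these genes the highest *Atgl* ECKO library lay below the lowest control. With chromosome medians taken off, *Uvrag* kept its call at -0.18. *Pik3c3* and *Pik3r4* lost theirs at -0.01 and -0.05, as did *Becn1*, at a value of 0.00013, and *Ambra1*, which turned to 0.06. The call of *Becn1* was also lost without *Atgl* ECKO replicate 3 (-0.08, adjusted p = 0.0509 from limma).

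Genes for membrane supply, lipid transfer and the WIPI proteins split evenly, with 3 of 6 higher and 3 lower. *Atg2b*, which encodes a lipid transfer protein that bridges the ER and the phagophore, had 47.3, 49.2 and 45.3 CPM in control libraries and 69.1, 70.6 and 71.6 CPM in *Atgl* ECKO libraries. The groups were far apart. The log2 fold change was 0.57 (95% interval 0.49 to 0.64, adjusted p = 1.38e-09 from limma), and 0.20 with the chromosome 12 median taken off (adjusted p = 0.000177 from limma). Its paralog *Atg2a* had 26.1, 27.2 and 27.7 CPM against 34.3, 34.5 and 34.5 CPM. The *Atgl* ECKO libraries were nearly equal and all above the controls. *Atg2a* rose by 0.34 (adjusted p = 8.96e-07 from limma), and this turned to -0.07 with the chromosome 19 median taken off, which did not pass.

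*Vmp1* encodes an ER lipid scramblase that autophagosome formation needs. Its level was 82.0, 78.6 and 76.8 CPM in control and 62.7, 62.8 and 60.3 CPM in *Atgl* ECKO libraries. No *Atgl* ECKO library came near the controls, and the log2 fold change was -0.35 (95% interval -0.42 to -0.28, adjusted p = 2.19e-07 from limma). *Vmp1* shares its locus with the microRNA gene *Mir21a*, whose primary transcript a gene-level value may not separate. *Wipi1* and *Wipi2* encode paralogs that bind the phosphoinositide made by VPS34, and WIPI2 recruits ATG16L1. *Wipi1* had 49.2, 48.2 and 51.1 CPM in control and 41.7, 40.9 and 39.3 CPM in *Atgl* ECKO libraries. *Wipi2* had 56.9, 55.7 and 58.6 CPM in control and 64.9, 65.4 and 62.8 CPM in *Atgl* ECKO libraries. The paralogs thus moved in opposite directions without overlap in either, by -0.28 (adjusted p = 6.13e-06 from limma) for *Wipi1* and by 0.17 (adjusted p = 0.000304 from limma) for *Wipi2*. With chromosome medians taken off they stood at -0.18 and 0.26 and both kept their calls. *Atg9a*, the transmembrane scramblase that seeds the phagophore, had overlapping groups and passed narrowly at -0.09 (adjusted p = 0.0475 from limma). It lost the call without control replicate 1 or 3 or *Atgl* ECKO replicate 2 or 3 (adjusted p in limma from 0.0895 to 0.182) and with its chromosome median taken off (-0.02). *Atg9a* shares 37.2% of its exon bases with *Gm29253* on its own strand and *Ankzf1* on the other. *Ankzf1* had 8.11 ± 0.296 CPM and 8.87 ± 0.375 CPM (SD, n = 3 each), so a gene-level value may not separate them.

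Among the 10 ubiquitin-like conjugation genes, 5 rose, 2 fell and 3 did not pass, and no log2 fold change exceeded 0.23 in size. With chromosome medians taken off 3 were higher and 0 lower, beside 32.3% and 31.8% of all genes. As the values stand, the enzymes that rose included the E1-like ATG7, which activates both ATG12 and LC3, and the E2-like ATG3, which carries LC3 to the lipid. *Atg3* had 29.6, 29.9 and 28.5 CPM in control and 34.8, 34.9 and 34.1 CPM in *Atgl* ECKO libraries, with no overlap. Its log2 fold change of 0.23 turned to -0.03 with the chromosome 16 median taken off. *Atg7* rose from 34.4 ± 0.671 CPM to 38.2 ± 0.979 CPM (SD, n = 3 each), a log2 fold change of 0.14, and kept its call with the chromosome median off (0.11). *Atg5*, whose product is joined to ATG12, rose from 34.3 ± 2.05 CPM to 39.2 ± 0.638 CPM (SD, n = 3 each), a log2 fold change of 0.19 that turned to -0.0033 with the chromosome 10 median taken off.

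*Atg10*, the E2-like enzyme for ATG12, lay closest to the filter, at 1.71, 1.65 and 1.39 CPM in control and 1.98, 2.25 and 1.80 CPM in *Atgl* ECKO libraries. The ranges did not overlap but nearly met. Its log2 fold change was 0.22 (adjusted p = 0.0299 from limma), or 0.35 as the ratio of mean CPM without the added 1 CPM, and 0.34 with its chromosome median taken off. The call was lost without control replicate 3 (0.16, adjusted p = 0.124 from limma) or *Atgl* ECKO replicate 2 (0.16, adjusted p = 0.138 from limma). The ATG4 proteases prime LC3 and GABARAP and also remove them from lipid. *Atg4a* rose from 10.5 ± 0.434 CPM to 12.2 ± 0.926 CPM (SD, n = 3 each). Its near-identical copy *Atg4a-ps*, aligned over 96.0% of the transcript at 99.3% identity, had 9.60 ± 0.867 CPM and 10.5 ± 1.10 CPM (SD, n = 3 each), so the split of reads between them is uncertain, and the sum of both had a log2 ratio of 0.18. *Atg4b* fell by 0.13 on the log2 scale with overlapping groups, and lost its call without control replicate 3 or *Atgl* ECKO replicate 2 or 3 (adjusted p in limma of 0.107, 0.0995 and 0.0822) and with its chromosome median off (-0.05). *Atg16l1*, the scaffold that fixes the site of LC3 conjugation, fell by 0.14 with overlapping groups and lost its call without control replicate 3 or *Atgl* ECKO replicate 1 or 3 (adjusted p in limma of 0.152, 0.0672 and 0.0992) and with its chromosome median off (-0.06). *Atg4c*, *Atg4d* and *Atg12* did not pass, at -0.02, -0.08 and -0.06, nor at 0.08, 0.02 and 0.06 with chromosome medians off. *Atg4d* shares 23.6% of its exon bases with *Kri1* on the other strand, which had 27.8 ± 0.953 CPM and 29.3 ± 0.406 CPM (SD, n = 3 each). Whether counting used strand is not stated, so the value of *Atg4d* may hold reads of *Kri1*.

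The promoters of 33 of the 40 genes were matched in RefSeq (GRCm38.p6), as 39 windows of 250 bases before an annotated start, 5 of which lie before a start more than 1000 bases inside the gene as GENCODE M21 gives it. They were searched on both strands for CACGTG, the E-box core that TFEB, TFE3 and MITF can bind, for TGATGNAA, the composite element of CHOP and ATF4, and for TGTTTAC, the forkhead element of FOXO factors. CACGTG was in 4 windows, those of *Atg3*, *Atg5*, *Atg7* and *Bnip3*, which is 10.3% of the 39, beside 6.02% of all 32851 windows of the same length. TGATGNAA and TGTTTAC were in 0 of the 39, beside 3.45% and 3.17% of all windows. The *Atg7* window is 1 of those 5, before an internal start 27999 bases inside the gene, and is not shown. These matches are a description of the letters and not evidence of binding. The other windows that hold the motif are shown. Those of *Atg3* and *Atg5* belong to conjugation genes that were higher in *Atgl* ECKO LECs. With chromosome medians taken off, these genes stood at -0.03 and -0.0033 and did not pass. That of *Bnip3* belongs to a mitophagy receptor gene that did not pass. The windows shown lie at chr16:45158579-45158828 (*Atg3*, plus strand), chr10:44268089-44268338 (*Atg5*, plus strand) and chr7:138909507-138909756 (*Bnip3*, minus strand). Each reads 5′ to 3′ toward the start, with CACGTG in capitals.
*Atg3*: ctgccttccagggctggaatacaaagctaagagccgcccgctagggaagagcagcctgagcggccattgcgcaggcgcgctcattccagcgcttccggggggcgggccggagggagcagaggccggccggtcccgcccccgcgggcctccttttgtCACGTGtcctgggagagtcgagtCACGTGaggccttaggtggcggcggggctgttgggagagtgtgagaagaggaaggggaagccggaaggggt
*Atg5*: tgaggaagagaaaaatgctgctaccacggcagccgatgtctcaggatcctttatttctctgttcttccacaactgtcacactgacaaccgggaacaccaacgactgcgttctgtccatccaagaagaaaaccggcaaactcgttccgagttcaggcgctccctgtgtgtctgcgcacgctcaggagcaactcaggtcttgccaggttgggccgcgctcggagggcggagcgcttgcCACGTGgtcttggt
*Bnip3*: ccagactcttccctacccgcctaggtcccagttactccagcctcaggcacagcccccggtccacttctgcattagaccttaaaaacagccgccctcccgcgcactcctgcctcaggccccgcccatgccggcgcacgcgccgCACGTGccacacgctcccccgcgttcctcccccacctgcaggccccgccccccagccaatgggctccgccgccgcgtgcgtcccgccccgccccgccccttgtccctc
Counted from the start, with -1 as the last base before it, the motif was at -94 to -89 and -71 to -66 in *Atg3*, at -14 to -9 in *Atg5* and at -108 to -103 in *Bnip3*.

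Of the 5 LC3 and GABARAP genes, 2 rose, 2 fell and 1 did not pass. *Map1lc3a* (LC3A) had the largest change of them, with 7.37, 8.07 and 8.60 CPM in control and 5.00, 4.94 and 4.91 CPM in *Atgl* ECKO libraries. The *Atgl* ECKO libraries were almost equal to each other and all below the controls. The log2 fold change was -0.60 (95% interval -0.73 to -0.46, adjusted p = 4.92e-07 from limma), or -0.70 as the ratio of mean CPM, and -0.37 with the chromosome 2 median taken off (adjusted p = 9.19e-05 from limma). *Map1lc3b* (LC3B), the form most used to follow autophagosomes, had 97.1, 93.7 and 99.2 CPM in control and 108, 102 and 97.4 CPM in *Atgl* ECKO libraries. The ranges overlapped, since *Atgl* ECKO replicate 3 lay within the controls. It did not pass (log2 fold change 0.08, 95% interval 0.00 to 0.16, adjusted p = 0.0641 from limma), but passed as higher without control replicate 3 (0.10, adjusted p = 0.0396 from limma), without *Atgl* ECKO replicate 3 (0.12, adjusted p = 0.0135 from limma), and after rescaling by median ratios or quantile normalization (0.09 in each). With its chromosome median off it stood at -0.03 and did not pass.

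The GABARAP genes, whose products act later in autophagosome closure and fusion, moved by small amounts in both directions. *Gabarap* had 137, 135 and 141.1 CPM in control and 127, 125 and 119 CPM in *Atgl* ECKO libraries. *Gabarapl1* had 65.2, 68.0 and 69.3 CPM in control and 74.2, 77.7 and 72.7 CPM in *Atgl* ECKO libraries. *Gabarapl2* had 25.3, 24.1 and 25.5 CPM in control and 27.9, 28.6 and 28.8 CPM in *Atgl* ECKO libraries. In none of them did the groups overlap, with *Gabarap* below and both paralogs above the controls. The log2 fold changes were -0.15 (adjusted p = 0.000534 from limma) for *Gabarap*, 0.15 (adjusted p = 0.00163 from limma) for *Gabarapl1* and 0.18 (adjusted p = 0.000742 from limma) for *Gabarapl2*. With chromosome medians off, *Gabarap* (-0.06) and *Gabarapl2* (0.07) no longer passed, and *Gabarapl1* stayed higher at 0.11. The retrocopy *Gm3724*, 99.4% identical to *Gabarapl2* over 20.8% of its transcript, had 5.56 ± 0.424 CPM and 6.89 ± 0.672 CPM (SD, n = 3 each), so part of the reads of *Gabarapl2* may be split with it.

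Per kb of exon, levels can be compared between these genes. In control LECs *Gabarap* had the highest level, 102 CPM per kb, followed by *Gabarapl1* at 33.5, *Map1lc3b* at 18.7, *Gabarapl2* at 14.9 and *Map1lc3a* at 7.21 CPM per kb. In *Atgl* ECKO LECs the levels were 91.7, 37.2, 19.8, 17.0 and 4.45 CPM per kb in the same order. No library of a genotype put neighbours in this order the other way round. Lengths are those of all annotated exons in GENCODE M21 and not of the isoforms that LECs use.

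**Figure D4:**
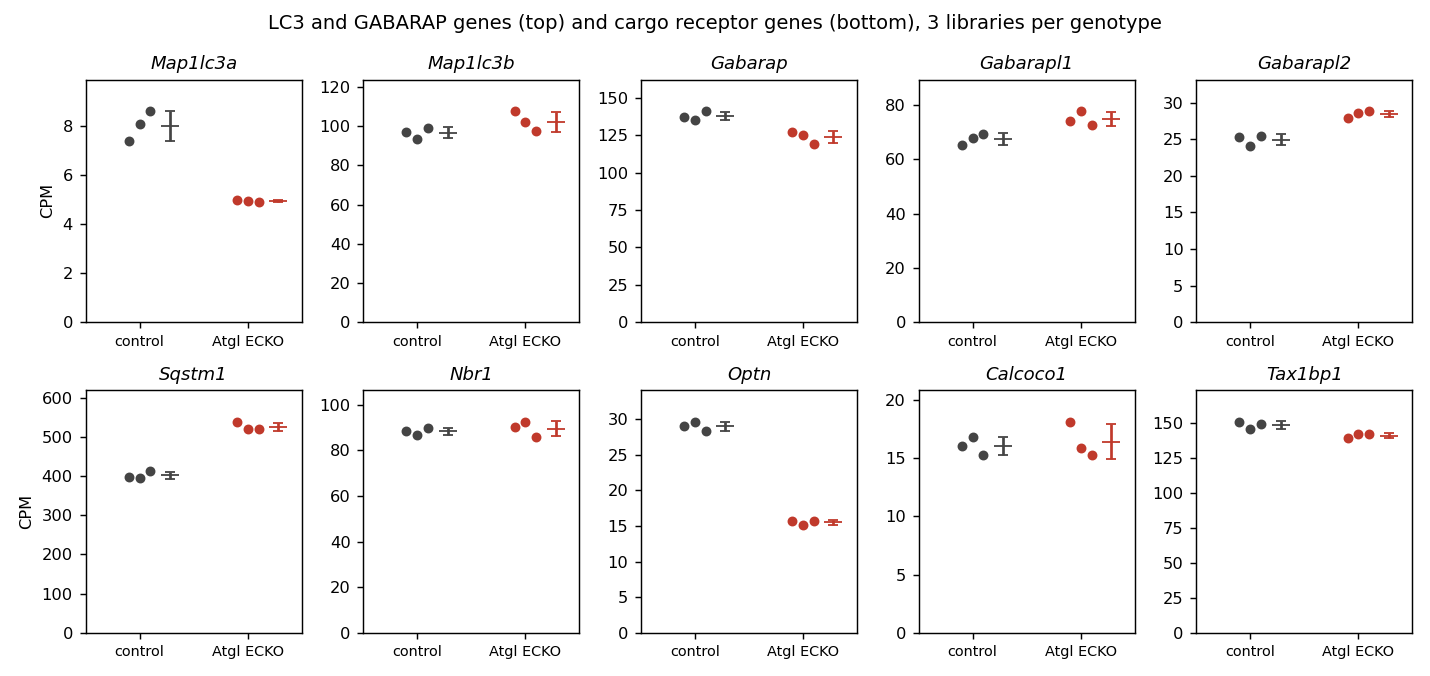
CPM of each library (points), with the mean ± SD of the 3 libraries beside them, is shown for the 5 LC3 and GABARAP genes in the top row and the 5 cargo receptor genes in the bottom row. All axes start at 0, and the separation is widest for *Optn*, *Map1lc3a* and *Sqstm1*, while *Map1lc3b*, *Nbr1* and *Calcoco1* overlap.

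Among the 5 cargo receptor genes, *Sqstm1* rose, *Optn* and *Tax1bp1* fell, and *Nbr1* and *Calcoco1* did not pass. *Optn* (chromosome 2, 5020642 to 5064051 on GRCm38), which encodes optineurin, a receptor in mitophagy and in autophagy of bacteria, had the largest change of the 40 genes. It had 29.1, 29.6 and 28.3 CPM in control libraries and 15.7, 15.2 and 15.7 CPM in *Atgl* ECKO libraries. The groups were far apart, and libraries of each genotype were close to each other. The mean went from 29.01 ± 0.648 CPM to 15.5 ± 0.329 CPM (SD, n = 3 each), 53.5% of control, with a log2 fold change of -0.86 (95% interval -0.95 to -0.77, adjusted p = 4.57e-11 from limma). With the chromosome 2 median taken off the value was -0.63, still past the test.

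*Sqstm1* (p62), which binds ubiquitin and LC3 and is itself degraded by autophagy, had 397, 396 and 412 CPM in control and 538, 521 and 519 CPM in *Atgl* ECKO libraries. Every *Atgl* ECKO library was far above the highest control. The mean rose from 401 ± 8.82 CPM to 526 ± 10.3 CPM (SD, n = 3 each), 131% of control, a log2 fold change of 0.39 (95% interval 0.32 to 0.45, adjusted p = 1.24e-08 from limma). The median of chromosome 11 was -0.10, and with it taken off the value of *Sqstm1* was 0.48. *Sqstm1* shares 20.5% of its exon bases with *Mrnip* on the other strand, but *Mrnip* had only 1.60 ± 0.169 CPM and 1.46 ± 0.373 CPM (SD, n = 3 each).

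*Tax1bp1*, an adaptor that also restrains NF-κB signaling through A20, had 151, 146 and 149 CPM in control and 139, 142 and 142 CPM in *Atgl* ECKO libraries. The ranges did not overlap but lay close. It fell by 0.08 on the log2 scale (adjusted p = 0.0292 from limma), and lost the call without control replicate 1 or 3 or *Atgl* ECKO replicate 1 or 2, with adjusted p-values in limma of 0.108, 0.0621, 0.0925 and 0.0656. *Nbr1*, a receptor that acts together with p62, had 88.3, 86.8 and 89.9 CPM against 90.3, 92.3 and 85.9 CPM. *Calcoco1*, a receptor in autophagy of the ER in human cells, had 16.02, 16.8 and 15.3 CPM against 18.1, 15.8 and 15.3 CPM. The ranges of the groups overlapped in both genes, at log2 fold changes of 0.02 (95% interval -0.05 to 0.09) and 0.03 (95% interval -0.10 to 0.15). *Nbr1* passed as higher with the chromosome 11 median taken off (0.11, adjusted p = 0.00781 from limma), and *Calcoco1*, at -0.05, did not pass.

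Per kb of exon, *Sqstm1* was far above the other cargo receptors, at 142 CPM per kb in control and 186 CPM per kb in *Atgl* ECKO LECs. *Tax1bp1* had 39.9 and 37.8 CPM per kb, *Nbr1* 16.9 and 17.1, *Optn* 11.1 and 5.94, and *Calcoco1* 4.20 and 4.30 CPM per kb. The order of the 5 genes was the same in both genotypes, and in all 6 libraries neighbours in it were apart.

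Of the pair of BNIP3-family genes, whose products recruit LC3 directly to mitochondria, *Bnip3l* rose and *Bnip3* did not pass. *Bnip3l* (NIX) had 45.9, 42.4 and 44.8 CPM in control and 68.8, 67.3 and 63.0 CPM in *Atgl* ECKO libraries. The lowest *Atgl* ECKO library was well above every control. Its log2 fold change was 0.57 (95% interval 0.48 to 0.66, adjusted p = 4.81e-09 from limma), and 0.12 with the chromosome 14 median taken off (adjusted p = 0.0161 from limma). The copy *Bnip3l-ps* on chromosome 12, 99.2% identical over 20.3% of the transcript, had 15.3 ± 1.35 CPM and 22.8 ± 0.239 CPM (SD, n = 3 each), a log2 fold change of 0.55, so reads shared between them may add to either value. The sum of both went from 59.7 ± 3.11 CPM to 89.2 ± 3.15 CPM (SD, n = 3 each). *Bnip3*, a target of hypoxia signaling, had 6.95, 5.91 and 6.38 CPM in control and 7.16, 6.74 and 6.50 CPM in *Atgl* ECKO libraries, with overlap and a log2 fold change of 0.07 (95% interval -0.06 to 0.21), or 0.12 with its chromosome median off, which did not pass. Transcribed copies of *Bnip3* add to the uncertainty of its value, since *AC160336.1*, 98.2% identical over 48.9% of the transcript, had 2.21 ± 0.141 CPM and 1.59 ± 0.0480 CPM (SD, n = 3 each). The sum of *Bnip3* and *AC160336.1* went from 8.62 ± 0.575 CPM to 8.40 ± 0.369 CPM (SD, n = 3 each), a log2 ratio of -0.04. With the copy *Gm16439* in its place the sum went from 7.23 ± 0.508 CPM to 7.68 ± 0.366 CPM (SD, n = 3 each), a log2 ratio of 0.09.

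*Stx17*, the SNARE on closed autophagosomes, had 30.8, 28.1 and 27.8 CPM in control and 24.5, 25.8 and 23.4 CPM in *Atgl* ECKO libraries. All *Atgl* ECKO libraries were below the controls. The log2 fold change was -0.23 (95% interval -0.33 to -0.12, adjusted p = 0.000607 from limma), and it was -0.13 with its chromosome median taken off, still past the test.

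Autophagy genes outside the 40 were counted from lists of related genes. Their counts stand beside the 34.2% of all tested genes that were higher and the 36.2% that were lower, and no difference from these shares was tested. Of 15 genes for fusion with lysosomes, 8 were lower (53.3%), 2 higher (13.3%) and 5 did not pass, and with chromosome medians taken off 6 were lower and 4 higher. The SNARE genes among them differed in direction: *Ykt6* fell from 112 ± 3.66 CPM to 89.1 ± 3.02 CPM, *Snap29*, the partner of STX17, rose from 82.1 ± 2.01 CPM to 103 ± 3.25 CPM, and *Vamp8*, the lysosomal partner, rose from 33.7 ± 1.66 CPM to 40.8 ± 0.993 CPM (SD, n = 3 each). The log2 fold changes were -0.33 for *Ykt6*, 0.33 for *Snap29* and 0.27 for *Vamp8*, with no overlap between the groups. *Snap29*, on chromosome 16, stood at 0.07 with its chromosome median taken off and no longer passed.

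Of 19 other genes of early autophagy, 9 were lower (47.4%), 5 higher (26.3%) and 5 did not pass. With chromosome medians taken off 7 were lower (36.8%) and 5 higher (26.3%), beside 31.8% and 32.3% of all genes. *Trp53inp2*, which encodes the LC3-binding protein DOR, fell from 94.3 ± 2.39 CPM to 56.1 ± 2.16 CPM (SD, n = 3 each), a log2 fold change of -0.74. *Rubcn* encodes Rubicon, which binds UVRAG and restrains autophagosome maturation. Its level rose from 37.3 ± 2.05 CPM to 54.7 ± 1.63 CPM (SD, n = 3 each), a log2 fold change of 0.54, and 0.28 with the chromosome 16 median off. Of the paralogous small GTPase genes, *Rab1b* rose by 0.61 on the log2 scale (0.20 with the chromosome 19 median off), while *Rab1a* fell by 0.24 (-0.14 with the chromosome 11 median off).

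Of 19 other selective receptors, 17 passed the filter, and 7 rose, 7 fell (41.2% each way) and 3 did not pass. With chromosome medians taken off 9 were lower (52.9%) and 6 higher (35.3%), beside 31.8% and 32.3% of all genes. *Ncoa4*, the receptor for ferritin, rose from 88.2 ± 0.588 CPM to 134 ± 4.37 CPM (SD, n = 3 each), a log2 fold change of 0.59, and 0.15 with the chromosome 14 median off. *Atl3*, a receptor for tubular ER, rose by 0.45 and stood at 0.05 with the chromosome 19 median off, where it did not pass. *Stbd1*, which binds glycogen, had 2.14, 2.09 and 1.92 CPM in control and 0.475, 0.600 and 0.596 CPM in *Atgl* ECKO libraries. It was low in both genotypes, without overlap, and passed the filter only through the control libraries. On the scale of CPM + 1 its log2 fold change was -0.97, while the log2 ratio of mean CPM was -1.88.

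Genes of 14 transcription factors that act on autophagy genes gave 7 higher (50%), 6 lower (42.9%) and 1 that did not pass. With chromosome medians taken off the counts were again 7 higher and 6 lower. *Atf4* rose from 257 ± 4.83 CPM to 336 ± 8.41 CPM (SD, n = 3 each), and *Ddit3*, which encodes CHOP, from 9.23 ± 0.461 CPM to 15.5 ± 0.417 CPM (SD, n = 3 each). *Foxo3* had 56.0, 57.2 and 57.2 CPM in control and 96.8, 99.1 and 98.0 CPM in *Atgl* ECKO libraries. *Foxo1* had 98.9, 97.2 and 94.5 CPM in control and 70.7, 69.9 and 69.9 CPM in *Atgl* ECKO libraries. The forkhead paralogs thus moved apart, by 0.78 (adjusted p = 3.39e-12 from limma) for *Foxo3* and by -0.46 (adjusted p = 2.42e-09 from limma) for *Foxo1*, with no overlap in either. *Nfe2l2* (NRF2), which binds the *Sqstm1* promoter in other settings and whose repressor KEAP1 is bound by p62, had 316, 312 and 321 CPM in control and 189.4, 187 and 181 CPM in *Atgl* ECKO libraries. All *Atgl* ECKO libraries were far below the controls, and the log2 fold change was -0.77 (adjusted p = 2.68e-12 from limma). Any relation of this to the level of *Sqstm1* was not tested. *Tfeb*, a factor of lysosomal and autophagy genes that was named after its value was seen, had 3.46, 3.31 and 3.41 CPM in control and 6.30, 5.46 and 5.38 CPM in *Atgl* ECKO libraries. Its groups did not overlap, and it rose by 0.61 on the log2 scale (adjusted p = 1.07e-06 from limma).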

How the data were processed

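RNA-Seq libraries of untreated LECs, 3 control and 3 *Atgl* ECKO, were compared. The authors deposited CPM values, which by the study's methods came from STAR alignments counted in Partek (E/M) on a RefSeq model. Tool versions are not given in the sources at hand. Methods and labels name the human build hg19, while the symbols are of mouse, and labels and methods name a small RNA library kit for libraries made from total RNA. Whether counting used strand is not stated. The deposited z-score table was not used. Of 20430 lines, 21 with a date for a symbol were left out, and all values carry an added 0.0001 CPM. Counts were not in the table, and 82.1% to 83.2% of the values worth under 20.5 reads were within 0.1 of a whole number of reads. No count test was run.

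A linear model with genotype as its single term was fitted to log2(CPM + 1) in limma 3.58.1 under R 4.3.3 (moderated variances with a trend), over the 12837 genes whose mean reached 1 CPM. A gene was called at a Benjamini-Hochberg adjusted p under 0.05 over these genes. Fold changes are on the log2(CPM + 1) scale, which understates changes of low genes. Chromosomes and exon lengths came from GENCODE M21, and copies were sought by alignment at 95% identity or more over at least 150 bases. The fit was tested on simulated data. Summaries were made in Python 3.11.15 with pandas 2.3.3.

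The members and lists were chosen with earlier results of these data known. Described in full were the 12 members with the smallest adjusted p, the LC3 and GABARAP genes and the cargo receptors. From each related list up to 5 genes with the smallest adjusted p could be named. *Tfeb* was named outside this rule, after its values were seen, and *Tfe3* and *Mitf* were given beside it as its paralogs. Alternatives were other pseudocounts, filters, scalings and variance models, a replicate block, leaving out each library, removal of chromosome medians and the ratio of mean CPM.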

Additional observations from a re-analysis of the deposited data

How the results depend on the processing

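Over 16 alternatives that gave a test, 20 of the 40 autophagy genes kept their call in all (6 higher, 9 lower and 5 not past), and 20 changed in some. *Optn*, *Ulk1*, *Ulk2*, *Vmp1* and *Sqstm1* were among the 20 that kept theirs. Removal of chromosome medians changed most. With it 11 genes were lower in place of 19 (27.5%, beside 31.8% of all genes), and 10 higher in place of 13 (25%, beside 32.3%). The sign of the log2 fold change turned for 11 genes, *Atg13* (0.16), *Becn1* (0.00013), *Ambra1* (0.061), *Atg2a* (-0.066), *Atg3* (-0.031), *Atg5* (-0.0033), *Atg4c* (0.08), *Atg4d* (0.02), *Atg12* (0.06), *Map1lc3b* (-0.03) and *Calcoco1* (-0.05), the last 5 of which passed in neither setting. Leaving out each library in turn gave 12 to 14 of the 40 genes higher and 14 to 19 lower. Of all 12837 genes tested, 4051 to 4369 were then higher and 4238 to 4596 lower, beside 4396 and 4649 in the main fit. The log2 fold change of *Pnpla2* ran from -1.52 to -1.43. Replicate numbers are shared between the groups, but same-numbered libraries did not deviate together (r = 0.09, 0.09 and -0.15 across genes). Pairs with different numbers ran from -0.30 to 0.23. With deviations from means of only 3 libraries, this check cannot exclude a shared batch. With the replicate block 13 genes were higher and 16 lower (4367 and 4602 of all genes), and *Atg101*, *Atg9a* and *Tax1bp1* lost their calls. Without moderation of variances 11 were higher and 14 lower (3917 and 4067 of all genes). As the ratio of mean CPM, *Optn* stood at -0.90, *Map1lc3a* at -0.70 and *Atg10* at 0.35. These values differed from those of the main fit by more than the residual spread between replicates. Under the filter at a mean of 5 CPM *Atg10* was not tested. At 55.6 to 69.0 reads for each CPM, *Atg10* rested on the fewest reads of the 40 genes.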
